A study of Mus musculus with 4 samples.

Results

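A set of 10 immediate early genes was examined in the cytoplasm of the mouse neuroblastoma line Neuro2A. The cells had been depleted of 4.5SH, a short rodent RNA that codes for no protein. The genes were Egr1, Egr2, Fos, Jun, Junb, Ier2, Ier5, Dusp1, Klf4 and Klf6. They were chosen by symbol: every probe set whose array annotation gave 1 gene symbol was taken when that symbol was one of these 10. This gave 19 probe sets for 10 genes, out of 45037 probe sets and 18193 genes on the array outside its control probe sets. All 19 had a mean signal above the filter (below) and were tested, and 5 genes had 1 probe set while the other 5 had 2 to 5.

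The study hybridised 4 Affymetrix arrays, 2 of knockdown cells and 2 of control cells, which the labels call biological replicates. All cells were of the same line, and the labels' protocol describes transfection of antisense oligonucleotides (30 nM) for both groups. The control is labelled only as such. Its oligonucleotide was not given in the sources used here, and effects of 4.5SH loss cannot be told apart from other effects of the transfection. The stated purpose was to find genes with antisense B1 elements that 4.5SH acts on. No probe set carried the name of 4.5SH, and the level of its depletion was not analysed here. No label says whether the replicates were separate transfections. The p-values then reflect only the spread between these samples, which may be technical. In RNA of a whole culture, fewer cells with a transcript and less of it per cell cannot be told apart. Only cytoplasmic RNA was measured, so a change in a transcript's level cannot be told apart from a change in its cytoplasmic share.

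Immediate early genes are switched on within minutes of a stimulus without new protein synthesis, and their mRNAs are decayed quickly. Growth factor and calcium signals reach them through the kinases ERK, JNK and p38 and through the promoter-bound factors SRF, its ternary complex partners, and CREB. Fos, Jun and Junb encode subunits of the dimeric factor AP-1, Egr1 and Egr2 encode zinc finger factors that bind GC-rich sites, and Klf4 and Klf6 encode zinc finger factors of the Krüppel-like family. In neural cells these genes are widely used as markers of stimulation. The set was proposed under the name of transcription factors, but Dusp1 encodes a phosphatase that inactivates MAP kinases, and Ier2 and Ier5 encode nuclear regulators without a classical DNA-binding domain.

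The promoters of 4 genes are shown because their genes lie on both sides and in the middle of the signal differences given next. Junb and Dusp1 were lower, Fos did not pass and Klf4 was higher. Each promoter is the 250 bases before the annotated gene start (RefSeq, GRCm38.p6), written 5′ to 3′ on the strand of the gene. Capitals mark matches to the cyclic AMP response element core TGACG, the EGR site GCGNGGGCG and the TATA letters TATAAA, searched on both strands.
Junb, chr8:84978749-84978998, minus strand: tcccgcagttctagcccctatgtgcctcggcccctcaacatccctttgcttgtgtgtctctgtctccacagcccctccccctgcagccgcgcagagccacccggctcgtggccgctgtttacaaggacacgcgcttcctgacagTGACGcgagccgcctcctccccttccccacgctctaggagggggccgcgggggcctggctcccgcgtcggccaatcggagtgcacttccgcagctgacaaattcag
Dusp1, chr17:26508473-26508722, minus strand: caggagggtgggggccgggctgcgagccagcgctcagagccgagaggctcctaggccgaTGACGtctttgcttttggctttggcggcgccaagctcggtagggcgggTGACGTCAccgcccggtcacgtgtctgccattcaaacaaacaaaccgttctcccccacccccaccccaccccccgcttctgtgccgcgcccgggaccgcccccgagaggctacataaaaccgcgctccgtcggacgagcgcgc
Fos, chr12:85473640-85473889, plus strand: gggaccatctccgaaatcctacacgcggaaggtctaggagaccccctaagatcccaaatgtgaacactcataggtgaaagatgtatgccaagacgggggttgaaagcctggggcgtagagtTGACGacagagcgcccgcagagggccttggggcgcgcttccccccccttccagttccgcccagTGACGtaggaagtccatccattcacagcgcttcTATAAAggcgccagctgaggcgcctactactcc
Klf4, chr4:55532476-55532725, minus strand: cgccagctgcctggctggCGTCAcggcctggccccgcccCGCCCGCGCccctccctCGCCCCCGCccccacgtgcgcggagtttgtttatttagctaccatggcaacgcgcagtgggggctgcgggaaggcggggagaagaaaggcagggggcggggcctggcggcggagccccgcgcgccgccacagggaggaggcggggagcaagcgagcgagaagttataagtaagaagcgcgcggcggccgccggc

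The RefSeq promoter table held 8 of the 10 genes, Egr2 with 5 alternative starts. TGACG was present on either strand in 17.8% of all 32851 promoter windows of this length. Junb held it once, with its first base 106 bases before the start. Fos held it 2 times, 129 and 66 bases before the start, with TATAAA 33 bases before it. Dusp1 held it 191 bases before the start and again in the full palindrome TGACGTCA at 143 bases, whose 8 letters contain the core on both strands. The palindrome was present in 1.55% of all windows and in no other window of these genes. Klf4 held 1 core on the opposite strand and 2 matches to GCGNGGGCG, also on the opposite strand, 211 and 194 bases before the start. That EGR site was present in 4.70% of all windows and among the 8 genes in Klf4 only. The CArG box, the SRF site, was present in 1.47% of all windows and in 4 of the 5 windows of Egr2, of which 3 overlap and share 1 match. No window of Ier5, Jun or Klf6 matched any searched motif, and TGANTCA, the AP-1 site, present in 6.75% of all windows, matched none of the 8 genes. These are matches of letters, and no match says only that the letters are not in these windows.

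After 4.5SH depletion Egr1, Junb and Ier2 were lower by about 2-fold and Klf4 was higher. The differences of Fos, Jun and Egr2 did not pass the test. Dusp1 was lower by less, a call lost with quantile scaling (-0.30, adjusted p = 0.108, limma). Klf6 was higher at its brightest probe set, but the mean of its probe sets did not pass (0.29, adjusted p = 0.0523, limma). Ier5 did not pass at its brightest probe set (-0.22, adjusted p = 0.0763, limma), whereas the mean of its probe sets did (-0.36, adjusted p = 0.0177, limma). The values are MAS5 signals, 1 brightness per probe set on a linear scale, and differences are on the scale of log2(signal + 16), which understates the change of dim probe sets. A difference was called at an adjusted p under 0.05 (limma, moderated across all 22525 tested probe sets and adjusted over them by Benjamini-Hochberg). An exact permutation test of 2 against 2 arrays cannot go below p = 0.333, so each p rests on the variance shared across probe sets. Of the 19 probe sets 9 were called (47.4%), 5 of them lower (26.3%) and 4 higher (21.1%). Over all tested probe sets 35.6% were called, 25.8% lower and 9.76% higher, so the share of lower calls among these genes was near that background. The 4 higher calls came from 2 genes, Klf4 and Klf6. By its brightest probe set each, 6 of the 10 genes were called, 4 lower and 2 higher, against 41.8%, 32.9% and 8.95% of 11814 genes. The groups did not overlap at 12 of the 19 probe sets, with the knockdown lower at 7 and higher at 5, against 66.9%, 44.3% and 22.6% of all tested probe sets. The median difference was -0.15 over the 19 probe sets and -0.11 over all tested ones.

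**Figure D1:**
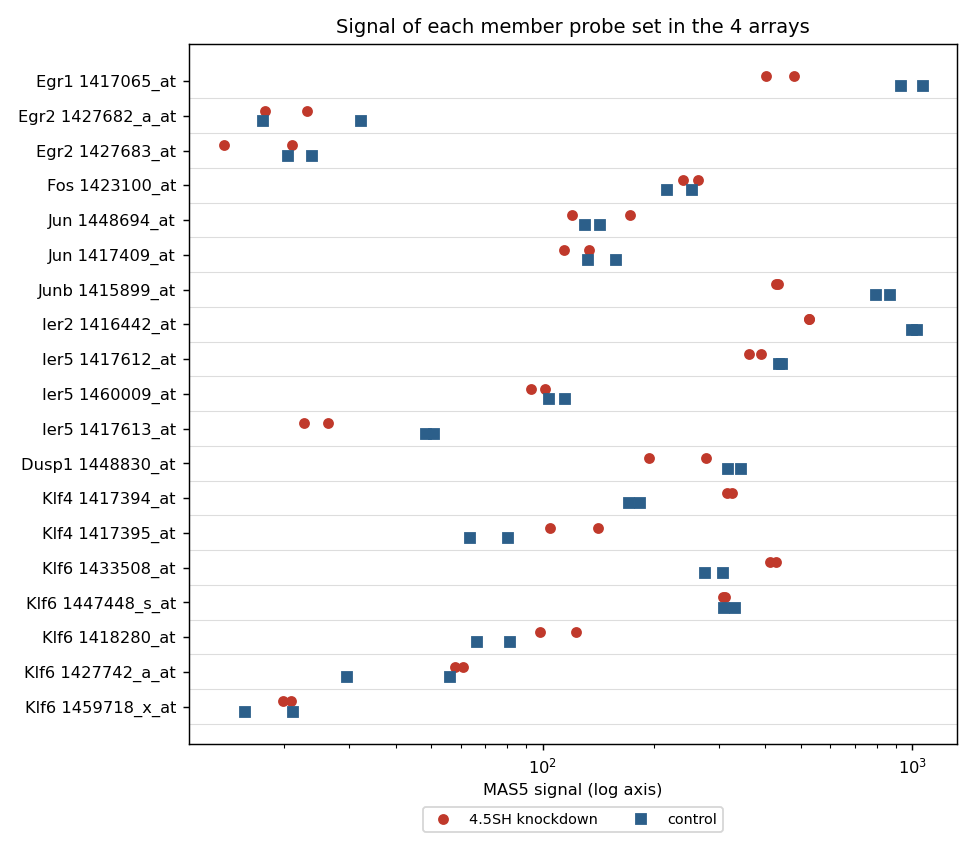
MAS5 signal on a log axis for each of the 19 probe sets, with 1 point per array, circles for the 2 knockdown arrays and squares for the 2 control arrays. Egr1, Junb and Ier2 read 400.7 to 525.9 in the knockdown and 798.7 to 1064.5 in the control, while both Klf4 probe sets read higher in the knockdown and Egr2 stayed below 33 in every array.

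The arrays themselves differed between groups. Trimmed mean signals ran from 128 to 133 for the knockdown and from 144 to 149 for the control. Precision is limited throughout by there being only 4 arrays. The Gapdh 3′ to 5′ control ratio was 0.787 to 0.833 in the knockdown and 0.861 to 0.884 in the control, and that of Actb 2.47 to 2.49 and 2.60 to 2.78. The 3′ Gapdh control probe set read 6323.9 to 6531.6 and 6573.9 to 6789.4. That of Actb read 8135.6 to 8385.1 and 6512.1 to 7371.1, higher in both knockdown arrays, whereas Actb differed by 0.067 ± 0.048 at its brightest probe set with 1 symbol (adjusted p = 0.303, limma; values after ± are standard errors unless marked SD). Of 19 neuroblastoma and neuron markers 17 had a probe set and 13 were tested. Of these Gata2, Phox2a, Ret and Stmn2 fell and Chgb rose. Over all tested genes 32.9% were called lower and 8.95% higher, so 4 lower and 1 higher of 13 lay near that background. Phox2a, a factor of noradrenergic neurons, read 1068.6 and 1070.2 in the knockdown against 1247.7 and 1267.8 in the control (-0.23, adjusted p = 0.0132, limma), while Th, which makes catecholamines, did not exceed 24.0 in any array. The summed signal of these markers was 9780 to 9951 in the knockdown and 10740 to 10760 in the control. Of 9 macrophage and immune markers 7 were tested and 2 fell, Cd68 and Fcer1g, near the same background of 32.9% lower. The other tested markers did not pass. The sum was 615 to 644 against 1325 to 1382, although Ptprc, the leukocyte marker, read at most 8.1. The 2 brightest, Cd68 (mean 339.8 against 669.8) and Fcer1g (96.15 against 435.4), held most of that sum. Fibroblast sums were 257 to 283 and 274 to 284 (8 of 9 measured, 3 tested and not passing), and glial sums 106 to 135 and 94.5 to 131 (8 of 9 measured, 4 tested, 1 higher). Nuclear RNAs, a check on the cytoplasmic fraction, summed to 363 to 373 and 576 to 587, with Malat1 and Neat1 lower and Xist higher among 6 tested of 11. That sum joins large opposite differences. Malat1 averaged 63.15 in the knockdown and 425.5 in the control, and Xist 177.6 and 13.9. The part of the RNA ratios, the neuronal and immune markers and the nuclear RNAs in the differences below was not tested.

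Egr1, a zinc finger factor induced by growth factors and by neuronal activity, had 1 probe set. It read 400.7 and 476.7 in the knockdown arrays and 1064.5 and 932.5 in the control arrays. Both knockdown arrays were far below both control arrays. Egr1 fell by 1.16 ± 0.096 on the log2 scale (adjusted p = 1.48e-06, limma), and the control mean was 2.28 times the knockdown mean. Of all tested probe sets 0.906% had a lower difference. Egr2, a related factor best known from the myelinating lineage and the hindbrain, was dim, at the 8.84th and 5.00th percentiles of mean signal among tested probe sets. Its probe set 1427682_a_at read 17.7 and 23.0 in the knockdown against 32.3 and 17.5 in the control, and 1427683_at read 13.7 and 21.0 against 20.5 and 23.8. The groups overlapped at both, which the annotation derives from the same source sequence. The differences were -0.15 (95% interval -0.69 to 0.39, adjusted p = 0.684, limma) and -0.20 (-0.73 to 0.32, adjusted p = 0.562, limma). Both intervals held 0 and falls by a log2 of up to 0.69 and 0.73, so neither a lack of change nor a fall of that size was shown.

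Of the 3 AP-1 subunits Junb was called, and Jun and Fos were not. Junb, a Jun-family subunit that can restrain growth, read 426.2 and 433.9 in the knockdown against 868.2 and 798.7 in the control. The groups were far apart, and the knockdown arrays nearly coincided. Junb fell by 0.93 ± 0.081 (adjusted p = 2.25e-06, limma), with a control mean 1.94 times that of the knockdown. Jun, the founding subunit, was measured by probe sets 1448694_at and 1417409_at from the same source sequence. The first read 120.1 and 171.9 in the knockdown against 143.0 and 130.4 in the control, and the other 114.4 and 133.5 against 132.9 and 157.9. Both overlapped between groups. The differences were 0.068 ± 0.15 (95% interval -0.26 to 0.39, adjusted p = 0.765, limma) and -0.20 ± 0.14 (-0.50 to 0.086, adjusted p = 0.267, limma). Fos, the partner with which Jun proteins form the most stable dimers, read 240.2 and 263.1 in the knockdown against 252.8 and 217.0 in the control. These values interleaved, and the difference was 0.096 ± 0.11 (95% interval -0.14 to 0.34, adjusted p = 0.547, limma).

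Whether the genes differed from Fos itself was tested within arrays, as the log2 signal of each probe set minus that of Fos, which cancels any factor common to an array. Relative to Fos, Egr1 was lower by a log2 difference of -1.26 ± 0.15 (adjusted p = 0.00104, limma) and Junb by -1.02 ± 0.15 (adjusted p = 0.00216, limma). In this test 22.0% of 22524 probe sets were called lower and 3.73% higher. Ier2 stood at -1.02 ± 0.15 (adjusted p = 0.00237, limma), Dusp1 at -0.58 ± 0.17 (adjusted p = 0.0310, limma) and the brighter Klf4 probe set at 0.70 ± 0.15 (adjusted p = 0.0103, limma). The dimmer Klf4 probe set (0.56 ± 0.16, adjusted p = 0.0285, limma) and Ier5 1417613_at (-0.80 ± 0.16, adjusted p = 0.0069, limma) passed as well. No other probe set of these genes passed. Jun at its brighter probe set did not differ detectably from Fos (-0.028, 95% interval -0.40 to 0.34), and Klf6 at its brightest probe set did not pass (0.41 ± 0.17, adjusted p = 0.0985, limma). Every one of these contrasts carries the spread of the same Fos values.

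Ier2, a small nuclear protein induced by serum, read 524.4 and 525.9 in the knockdown against 1031.3 and 996.5 in the control. The groups did not overlap, and each was narrow. Ier2 fell by 0.93 ± 0.074 (adjusted p = 1.16e-06, limma), with a control mean 1.93 times the knockdown mean. Ier5, a nuclear regulator linked to the heat shock factor HSF1, had 3 probe sets, of which 1 was called. The brightest, 1417612_at, read 362.4 and 390.3 in the knockdown against 443.4 and 435.9 in the control, a difference of -0.22 ± 0.090 that did not pass (adjusted p = 0.0763, limma). The next, 1460009_at, read 92.8 and 101.7 against 103.8 and 115.0 (-0.15 ± 0.14, adjusted p = 0.444, limma). The dimmest, 1417613_at, read 22.6 and 26.2 against 48.3 and 50.9 and was called, at -0.70 ± 0.20 (adjusted p = 0.0125, limma). At all 3 probe sets both knockdown arrays lay below both control arrays. The call at 1417613_at was lost without knockdown replicate 1 (-0.64, adjusted p = 0.0691, limma), without control replicate 2 (-0.67, adjusted p = 0.0594) and without the filter (adjusted p = 0.0921), and the difference was -0.36 with a pseudocount of 64. The mean of the 3 probe sets gave -0.36 for the gene (adjusted p = 0.0177, limma), and spike-in scaling brought the brightest to -0.36 (adjusted p = 0.0184).

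Dusp1, the MAP kinase phosphatase that limits JNK, p38 and ERK signals, read 194.2 and 276.4 in the knockdown against 343.8 and 316.9 in the control. Both knockdown arrays were below both control arrays, but they lay farther from each other than the nearest values of the 2 groups did. Dusp1 fell by 0.48 ± 0.14 (95% interval -0.77 to -0.19, adjusted p = 0.0131, limma). This call depended on the array and the scaling. It was lost without knockdown replicate 1 (-0.24, adjusted p = 0.179, limma), without control replicate 1 (-0.43, adjusted p = 0.0722), with quantile scaling (-0.30, adjusted p = 0.108), after centring on the tested probe sets (-0.35, adjusted p = 0.0529), without the filter (adjusted p = 0.111) and without the intensity trend (adjusted p = 0.115). Without knockdown replicate 2 the difference was -0.72.

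Klf4, a factor of the stem cell and epithelial programmes that also acts in growth arrest, was higher at both of its probe sets, which the annotation derives from the same source sequence. Probe set 1417394_at read 325.9 and 315.4 in the knockdown against 183.8 and 171.4 in the control, and 1417395_at read 104.9 and 141.2 against 80.6 and 63.6. No knockdown array overlapped a control array at either. The rises were 0.80 ± 0.10 (adjusted p = 5.40e-05, limma) and 0.65 ± 0.16 (adjusted p = 0.00687, limma), and the brighter one exceeded 98.6% of all tested probe sets. The dimmer one lost its call without knockdown replicate 2 (0.46, adjusted p = 0.112, limma), without the filter (adjusted p = 0.0697) and without the intensity trend (adjusted p = 0.0562).

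Klf6, a ubiquitous relative with roles in injury responses and growth control, had 5 probe sets that disagreed in whether they passed. The brightest, 1433508_at, read 410.9 and 427.7 in the knockdown against 275.4 and 307.8 in the control, and rose by 0.50 ± 0.096 (adjusted p = 0.00109, limma). Probe set 1418280_at read 98.6 and 123.3 against 81.6 and 66.4 and rose by 0.49 ± 0.16 (adjusted p = 0.0242, limma). At both, the knockdown arrays lay above the control arrays. Probe set 1427742_a_at read 60.9 and 57.9 against 29.6 and 56.1, also without overlap, and did not pass (0.39 ± 0.21, adjusted p = 0.173, limma). The remaining pair, 1447448_s_at and 1459718_x_at, comes from 1 source sequence that the other 3 do not share, and the suffixes mark probes that may also match other transcripts. It read 307.1 and 311.2 against 330.5 and 309.4, and 19.8 and 20.9 against 21.1 and 15.7. Both overlapped, with differences of -0.046 ± 0.096 (adjusted p = 0.745, limma) and 0.084 ± 0.24 (adjusted p = 0.818, limma). The mean of the 5 probe sets was 0.29 and did not pass (adjusted p = 0.0523, limma). The call at 1418280_at was lost without knockdown replicate 2 (0.35, adjusted p = 0.218, limma), without control replicate 2 (0.37, adjusted p = 0.132), with spike-in scaling (0.35, adjusted p = 0.0969), without the filter (adjusted p = 0.116) and without the intensity trend (adjusted p = 0.0722), whereas 1427742_a_at passed without control replicate 2 (0.73, adjusted p = 0.0195) and stood at 0.064 without control replicate 1.

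**Figure D2:**
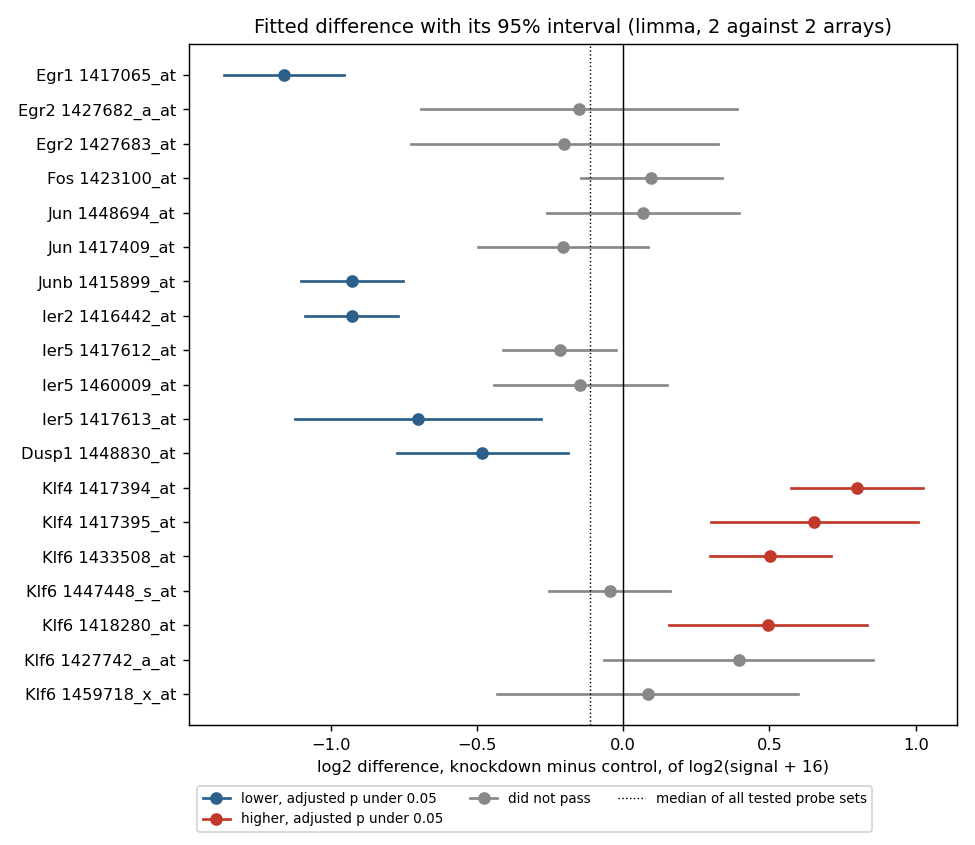
Difference of log2(signal + 16), knockdown minus control, for the 19 probe sets, as points with 95% intervals from limma on 2 against 2 arrays; colour gives the call at an adjusted p of 0.05 and the dotted line the median of all tested probe sets at -0.11. Egr1, Junb and Ier2 lie between -1.16 and -0.93 with intervals away from the dotted line, Klf4 lies at 0.65 and 0.80, and the 5 Klf6 probe sets range from -0.046 to 0.50.

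Probe sets of one gene were compared directly, as the change at each dimmer probe set minus that at the brightest. None of the 9 such differences among these genes passed (limma, adjusted over 8440 probe sets, of which 4 or 0.0474% were called), and 2 had an unadjusted p under 0.05. Those were Ier5 1417613_at at -0.48 ± 0.12 (adjusted p = 0.113, limma) and Klf6 1447448_s_at at -0.55 ± 0.14 (adjusted p = 0.118, limma). The difference between the Klf4 probe sets was -0.15 (95% interval -0.63 to 0.34).

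Each array scaling moved the probe sets of these genes in the same direction, but quantile scaling did so by unequal amounts. With it Klf6 1447448_s_at went from -0.046 to 0.14 and Egr2 1427683_at from -0.20 to -0.18. The median over all tested probe sets was -0.11 on the deposited scale, -0.00074 with quantile scaling, -0.091 after centring on all probe sets, 0.019 after centring on the tested ones and -0.25 with spike-in scaling. As deposited, the called probe sets split into 2199 higher and 5811 lower. Quantile scaling gave 3823 higher and 3758 lower, centring on tested probe sets 3773 and 3985, and spike-in scaling 1042 and 8008. Egr1 kept its call under all 15 alternatives that gave a value, with a range of -1.30 to -0.98, as did Junb (-1.07 to -0.74), Ier2 (-1.07 to -0.75), the brighter Klf4 probe set (0.66 to 0.97) and the brightest Klf6 probe set (0.36 to 0.69). These calls were weaker without the intensity trend. The adjusted p was then 0.0147 for Egr1 and Junb, 0.0137 for Ier2, 0.0153 for Klf4 and 0.0321 for Klf6 (limma). Fos was at 0.27 with quantile scaling (adjusted p = 0.0502, limma) and at -0.047 with spike-in scaling, so its direction was not settled, nor was that of the brighter Jun probe set (0.20 and -0.075).

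**Figure D3:**
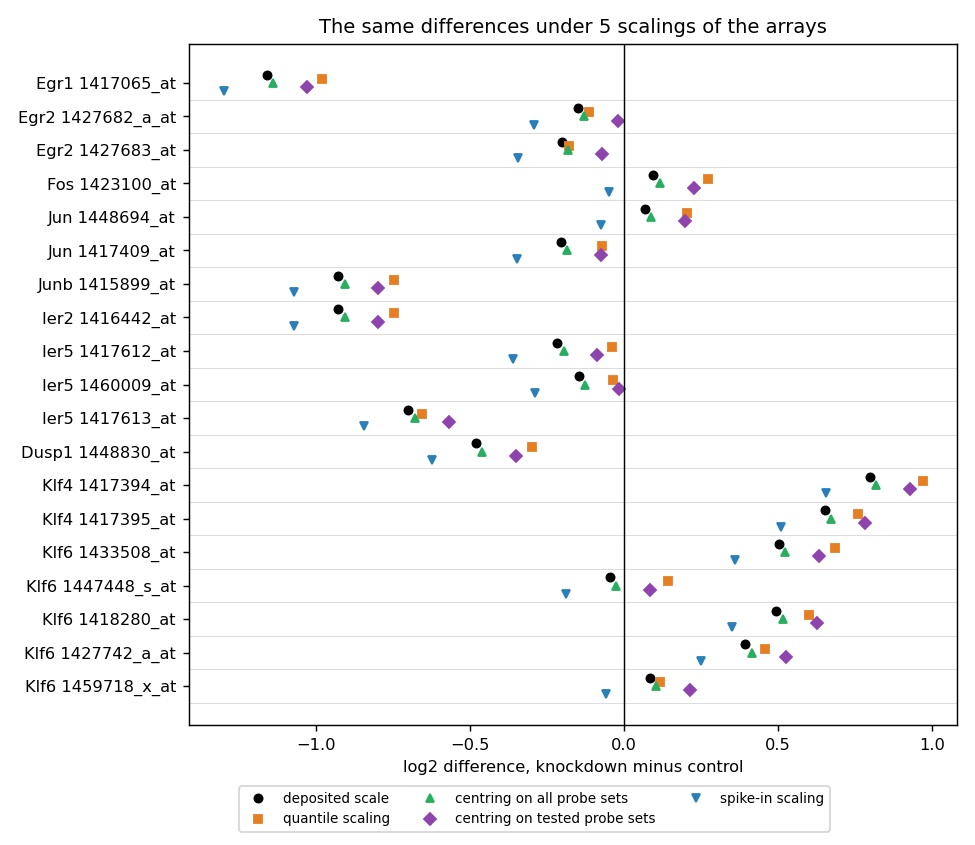
The log2 difference of each of the 19 probe sets under 5 scalings of the arrays, the deposited scale as circles and the others as named in the legend. Spike-in scaling gives the lowest value of every probe set, and Fos, the brighter Jun probe set, Klf6 1447448_s_at and Klf6 1459718_x_at change sign between scalings, while Egr1 stays between -1.30 and -0.98.

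Other immediate early genes moved in both directions. Of 44 listed genes 38 were tested, each by its brightest probe set, and 13 fell, 6 rose and 19 did not pass. Their median was -0.12, against -0.17 over all tested genes, of which 32.9% were called lower and 8.95% higher. The count was 8 lower and 11 higher with quantile scaling and 16 lower and 3 higher with spike-in scaling. The 4 with the smallest p all fell. Nr4a1, an orphan nuclear receptor induced by membrane depolarisation, averaged 113 ± 15.8 (SD, n = 2) in the knockdown and 234 ± 26.1 in the control, a fall of 0.96 ± 0.13 (adjusted p = 7.88e-05, limma). Dusp4, a nuclear MAP kinase phosphatase, averaged 317 ± 14.6 against 568 ± 25.9 (SD, n = 2) and fell by 0.81 ± 0.090. Gadd45b, a stress sensor, fell by 0.56 ± 0.062, with 2 of its 3 tested probe sets lower, and Ifrd1, a transcriptional coregulator, by 0.49 ± 0.060. Named after their values were seen, Myc (-0.28), the ERK phosphatase Dusp6 (-0.32) and the mRNA decay factor Zfp36 (-0.40) were lower. The antiproliferative genes Btg1 (0.66) and Tob1 (0.45), named in the same way, were higher, whereas Btg2 did not pass (-0.039). The others that rose were Homer1 (0.88, 1 of 2 probe sets), Nr4a2 (0.48, 2 of 5), Sgk1 (0.39) and Pim1 (0.33, 1 of 2). Homer1 was dim, at 13.4 and 28.9 in the control. The others that fell were Plk3 (-0.89), Per1 (-0.78), Trib1 (-0.49, 1 of 2 probe sets), Csrnp1 (-0.44), Ier3 (-0.43) and Nfkbia (-0.36, 5 of 5). Myc was at -0.092 with quantile scaling. The AP-1 subunits Jund (-0.13), Fosl2 (-0.26) and Atf3 (0.22) did not pass, and neither did Egr3 (0.16) or the synaptic gene Arc (-0.30).

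Of 35 listed upstream kinases and factors 26 had a probe set with 1 symbol and all 26 were tested: 5 fell, 3 rose and 18 did not pass, with a median of -0.021, again against 32.9% lower, 8.95% higher and a median of -0.17 over all tested genes. The 5 that fell were Mapk8, Mrtfa, Crtc2, Mapk14 and Srf, and the 3 that rose were Ep300, Elk3 and Sos2. Mapk8, the gene of the kinase JNK1, averaged 188 ± 28.5 (SD, n = 2) in the knockdown and 371 ± 16.6 in the control, a fall of 0.93 ± 0.11 (adjusted p = 3.41e-05, limma), with 3 of its 5 tested probe sets lower. Mrtfa, a coactivator that links actin to SRF, fell by 0.82 ± 0.11 from 224 to 119. Crtc2, a CREB coactivator, fell by 0.96 ± 0.14 at the brighter of 2 probe sets, both lower. Mapk14, the gene of p38 alpha, fell by 0.42 ± 0.088, with 1 of 5 probe sets lower, and Srf itself stood at -0.47 ± 0.13 (adjusted p = 0.0114, limma), with 1 of 2 probe sets lower. The coactivator Ep300 (0.39), the ternary complex factor Elk3 (0.44, 1 of 3 probe sets) and the Ras exchange factor Sos2 (0.52) were higher. With spike-in scaling 8 of the 26 fell and 0 rose (limma, with 2 higher at an unadjusted p under 0.05), and with quantile scaling 4 fell and 6 rose.

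The list of partners and corepressors held 24 genes, of which 22 were tested, with 4 lower, 4 higher, 14 not passing and a median of -0.018. The shares over all tested genes were 32.9% lower and 8.95% higher, with a median of -0.17. Maff, a small Maf protein that dimerises with basic leucine zipper factors, averaged 204 ± 18.7 (SD, n = 2) in the knockdown and 427 ± 31.8 in the control and fell by 1.01 ± 0.11 (adjusted p = 9.17e-06, limma). The related Mafg fell at both probe sets, by 0.71 ± 0.15 at the brighter, and the AP-1 and CRE-binding factor Atf2 by 0.30. The corepressors of EGR proteins moved apart: Nab2, which EGR1 itself is known to induce, averaged 156 ± 12.1 against 321 ± 20.8 (SD, n = 2) and fell by 0.97 ± 0.11 (adjusted p = 1.80e-05, limma), whereas Nab1 averaged 986 ± 31.6 against 668 ± 54.5 and rose by 0.55 ± 0.079 (adjusted p = 0.000116, limma). The other 3 that rose were the GC-box factor Sp3 (0.61) and the Krüppel-like genes Klf7 (0.49, 3 of 4 probe sets) and Klf9 (0.67, 1 of 2 probe sets). The other 8 listed Krüppel-like genes that were tested did not pass (limma, with Klf3 alone at an unadjusted p under 0.05), with differences from -0.46 for Klf2 to 0.47 for Klf12. Spike-in scaling left 4 lower and 4 higher, and quantile scaling 3 and 6.

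**Figure D4:**
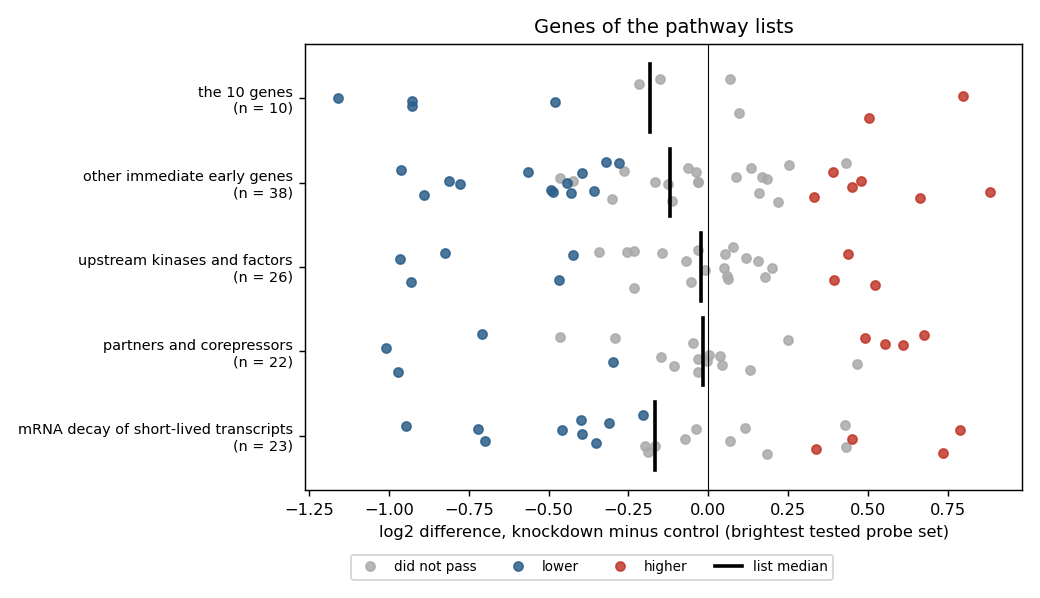
Log2 difference, knockdown minus control, of each tested gene at its brightest probe set, for the 10 genes and 4 pathway lists, 1 point per gene spread vertically at random, coloured by call, with a bar at the median of each list. The 10 genes reach from -1.16 (Egr1) to 0.80 (Klf4), and each list holds both lower and higher genes, with medians between -0.18 for the 10 genes and -0.018 for the partners.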

How the data were processed

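The authors deposited intensities, 1 MAS5 signal per probe set and array, the tool being named in the submitters' processing notes. Its version, scaling target and filters were not given in the sources used here. Per the labels, cRNA came from 200 ng of poly(A)+ RNA. Groups follow the sample titles. Of 45037 non-control probe sets 34945 had 1 symbol in the platform annotation, 932 several and 9160 none.

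Signals were used as log2(signal + 16), unscaled. Probe sets with a mean over the 4 arrays no lower than the median (16.9) entered limma 3.58.1 (R 4.3.3; lmFit and eBayes, intensity trend, 13.6 degrees of freedom in total, two-sided). The method was tested on simulated data with a normal spread set by mean signal. It called 98 of 100 made differences of log2 1 and 53 of 100 of log2 0.5. Of 22325 probe sets made without a difference it called 2. A real difference near 0.5 could therefore often fail to pass. Contrasts against Fos and between probe sets of a gene were added after seeing the data and used no trend. Members and lists were chosen with earlier results of these data known. The naming rule took all members, the 4 called genes of each list with the smallest p, Actb, and Gapdh by its control probe set; other list and marker genes in the text were chosen after their values were seen. Alternatives changed the pseudocount (1, 64), scaling, filter (none, brightest 25%), trend, threshold (0.01), probe set type (no _x_at or _s_at), gene summary (mean), replicate block and arrays (each left out). Plots used matplotlib 3.10.9 (Python 3.11.15).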

Additional observations from a re-analysis of the deposited data

How the results depend on the processing

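Over the 19 probe sets and the 5 genes with several, 249 of 280 recomputed values kept direction and call. The call was lost by 18 and gained by 3, and 10 changed sign, none of which was called before or after. The sign changed for Fos (-0.047), Jun 1448694_at (-0.075) and Klf6 1459718_x_at (-0.059) with spike-in scaling, for Klf6 1447448_s_at at 0.14 with quantile scaling and at 0.085 when centred on tested probe sets, and for Jun as the mean of its probe sets (-0.069). Leaving out 1 array gave -0.41 to 0.11 for Egr2 1427682_a_at, -0.0075 to 0.20 for Fos, -0.17 to 0.30 for Jun 1448694_at and -0.030 to 0.20 for Klf6 1459718_x_at. Of the 19 probe sets 4 were called higher and 5 lower. The higher count was 2 without the filter, on the brightest 25% and without the intensity trend, and the lower count was 3 without the filter and at an adjusted p of 0.01; leaving out 1 array gave 2 to 4 higher and 3 to 5 lower, with the lowest counts without knockdown replicate 2 and without knockdown replicate 1. On the brightest 25% fewer of the 19 probe sets were tested. At 0.01 only the threshold changed, and Ier5 1417613_at (adjusted p = 0.0125, limma) and Dusp1 (adjusted p = 0.0131, limma) did not meet it. The cause of the other shifts was not tested.

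Over all probe sets, 2199 higher became 3823 with quantile scaling, 3773 when centred on tested probe sets, 1042 with spike-in scaling, 1241 without the filter, 1354 without the trend and 1283 at 0.01, and 1200 to 1976 without 1 array; 5811 lower became 3758 with quantile scaling and 3778 without the trend. Over genes, 1057 higher became 1979, 1879, 453, 621, 584 and 629 in the same order, and 601 to 952 without 1 array, and 3881 lower became 2525 and 2537. Of the other immediate early genes 6 higher became 11 with quantile scaling, 11 when centred on tested probe sets and 3 with spike-in scaling, and 13 lower became 8 with quantile scaling. Of the upstream genes 3 higher became 6, 5 and 0 and 5 lower became 8 with spike-in scaling. Of the mRNA decay genes 4 higher became 7 with quantile scaling and 7 when centred on tested probe sets, and 9 lower became 4 and 5.

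Arrays with the same replicate number shared no detected deviation (correlation of same-numbered deviations 0.0072 over 22525 probe sets). That value cannot show whether the samples were prepared in pairs. With the replicate block 2399 probe sets were higher and 6123 lower, and 4 and 5 of the 19.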

Other observations

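Genes of mRNA deadenylation, decapping and decay, which act on short-lived transcripts, also moved in both directions. Of 24 listed genes 23 were tested: 9 fell, 4 rose and 10 did not pass, with a median of -0.17. Over all tested genes 32.9% were lower and 8.95% higher, with a median of -0.17, so the list lay near that background in its lower calls and its median. Quantile scaling turned the balance to 4 lower and 7 higher. Zfp36, Zfp36l1, Zfp36l2, Tob1 and Btg2 stand in the list of other immediate early genes too. Pabpc1, the cytoplasmic poly(A)-binding protein, averaged 5744 ± 11.5 (SD, n = 2) in the knockdown and 3453 ± 281 in the control and rose by 0.73 ± 0.056 (adjusted p = 7.89e-07, limma). Cnot7, a catalytic deadenylase of the CCR4-NOT complex, averaged 2086 ± 30.6 against 1200 ± 18.7 (SD, n = 2) and rose by 0.79 ± 0.060 (adjusted p = 8.04e-07, limma), with 2 of its 3 tested probe sets higher. The other 2 that rose were Tob1 (0.45), which binds that deadenylase, and Cnot6l (0.34), another deadenylase of that complex. Exosc10, a nuclease of the RNA exosome, fell by 0.70 ± 0.066, with 3 of 4 probe sets lower, and the poly(A)-specific ribonuclease Parn fell at both probe sets, by 0.95 ± 0.11 at the brighter. Pan2, the catalytic subunit of another deadenylase, stood at -0.72 and the decapping enzyme Dcp2 at -0.40; both were named after their values were seen.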
